A study of Homo sapiens with 12 samples.

Results

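The genes described here encode the subunits of the mitochondrial respiratory chain and of ATP synthase. They were chosen by symbol on arrays of 54675 probe sets. A probe set was taken where its annotation gave 1 gene symbol that begins with NDUFA, NDUFB, NDUFC, NDUFS or NDUFV (assembly factors left out), UQCR, ATP5, COX4, COX5, COX6, COX7 or COX8, or that is SDHA, SDHB, SDHC, SDHD or CYC1, and 2 probe sets of pseudogenes were left out. This gave 156 probe sets, of which 152 belong to 78 subunit genes and 4 to 3 noncoding genes beside them, so 81 of the 19775 genes with such a probe set. Complex I has 33 of the genes, complex II 3, complex III 7, complex IV 17 and complex V 18. For complex II these are SDHA, SDHC and SDHD. Probe sets annotated with several symbols are not members, which leaves out, among others, NDUFS5, NDUFS8, NDUFC2 and UQCRH, and the bright probe set of ATP5MF, a gene that stays a member through a dim probe set.

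The cells were 293T, a human embryonic kidney line that carries the large T antigen of the virus SV40. All were transfected with polyethylenimine and collected 48 hours later, so every group had met the reagent and a plasmid. The 3 groups of 4 biological replicates were a vector with an artificially constructed hairpin for CU1276, a small RNA that the study derives from a tRNA, a vector with the glycine tRNA gene chr1.tRNA68-Gly(GCC), and the empty vector. Each replicate was 1 array from 12 micrograms of total RNA.

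Respiratory chain complexes pass electrons from NADH and succinate to oxygen and pump protons out of the mitochondrial matrix, and ATP synthase uses the returning protons to make ATP. Complex I has a matrix arm that oxidises NADH and a membrane arm that pumps protons, complex II links the citrate cycle to the chain, complex III passes electrons to cytochrome c and complex IV to oxygen. Most subunits are encoded in the nucleus and imported, and complexes I, III, IV and V also hold proteins encoded in mitochondrial DNA. In many cell types the nuclear genes share control by the transcription factors NRF1, the ETS family member GABP, and YY1.

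Sequences for 66 of the 78 genes were found among RefSeq promoters of build GRCh38.p14, each a window of 300 bases that runs from 250 bases before the annotated start to 50 bases after it. Both strands of 27305 windows were searched for 3 sets of letters, CGCNTGCGC for NRF1, CCGGAAG for ETS factors and AAGATGGC for YY1. These windows were not filtered by type of gene or by expression in these cells, whereas the members are protein-coding genes and mostly bright. The NRF1 letters were in 22 member windows (33.3%, against 8.05% of all windows), the ETS letters in 18 (27.3%, against 10.7%) and the YY1 letters in 10 (15.2%, against 3.03%). At least 1 of the 3 was in 39 member windows (59.1%), against 19.2% of all. The ETS and YY1 letters can overlap, since one set ends and the other begins with AAG. By complex these were 17 of 31 windows for complex I, 2 of 2 for complex II, 4 of 5 for complex III, 6 of 14 for complex IV and 10 of 14 for complex V. A match describes these letters only and is not evidence that a factor binds.

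The 250 bases before the start are printed for 4 genes that stood highest by moderated t with the tRNA vector in complexes I and III, with the matched letters in capitals on the strand of the gene. The NDUFA1 window (chrX:119871582-119871831, plus strand) holds the ETS letters in reverse complement, and the UQCRC1 window (chr3:48609647-48609896, minus strand) holds the NRF1 letters at 2 places. None of the 3 sets of letters is in the printed windows of NDUFV1 (chr11:67606686-67606935, plus strand) and NDUFA10 (chr2:240025343-240025592, minus strand).
NDUFA1: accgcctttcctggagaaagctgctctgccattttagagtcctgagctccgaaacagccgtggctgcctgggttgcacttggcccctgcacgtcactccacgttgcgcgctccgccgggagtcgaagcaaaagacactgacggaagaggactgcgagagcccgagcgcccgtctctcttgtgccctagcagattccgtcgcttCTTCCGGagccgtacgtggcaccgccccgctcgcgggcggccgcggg
UQCRC1: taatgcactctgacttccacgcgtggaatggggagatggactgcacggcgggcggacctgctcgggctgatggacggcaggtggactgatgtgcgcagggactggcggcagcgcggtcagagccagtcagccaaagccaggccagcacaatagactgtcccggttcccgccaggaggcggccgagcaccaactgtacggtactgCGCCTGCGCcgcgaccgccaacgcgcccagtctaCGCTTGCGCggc
NDUFV1: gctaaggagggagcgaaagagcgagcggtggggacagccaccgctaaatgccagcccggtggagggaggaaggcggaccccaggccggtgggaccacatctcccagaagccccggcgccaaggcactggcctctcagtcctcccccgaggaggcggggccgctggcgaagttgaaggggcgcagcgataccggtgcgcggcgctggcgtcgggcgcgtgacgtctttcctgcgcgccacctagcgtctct
NDUFA10: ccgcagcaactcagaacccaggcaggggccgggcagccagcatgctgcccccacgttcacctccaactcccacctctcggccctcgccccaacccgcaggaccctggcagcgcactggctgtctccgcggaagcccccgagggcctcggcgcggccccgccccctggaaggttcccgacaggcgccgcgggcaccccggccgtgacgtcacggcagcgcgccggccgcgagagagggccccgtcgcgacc

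The deposited values are linear MAS5 signal intensities, with medians of 75.9 to 104 over the arrays. A probe set was tested where its geometric mean over the 12 arrays reached 43.3. This kept 137 of the 152 subunit probe sets and 76 of the 78 genes, and it left out COX7A1, a muscle isoform of complex IV, and COX7B2, a testis isoform. Each gene is represented by its brightest tested probe set, and genes are ordered by moderated t unless a fold change is named. Of the 76, 71 had a geometric mean of 787 or more and the other 5 (ATP5MF, COX4I2, COX6A2, COX6B2 and COX8C) had 94.9 or less. For ATP5MF this need not be the level of the gene, since a probe set annotated with both it and ARMC2-AS1 had means of 12174, 13349 and 13013 with the hairpin, tRNA and empty vector. Neurofilament genes, which this line expresses, were high, with NEFM signals of 4001 to 5472 with the hairpin vector, 4244 to 5486 with the tRNA vector, against 3872 to 5234 with the empty vector. PAX2, a gene of the kidney lineage, was at 114 to 237, 91.9 to 174 and 66.0 to 153 with the hairpin, tRNA and empty vector, and LHX1, another, was under the filter. Of other cell types, the 11 measured markers of B cells, T cells and leukocytes, and erythroid cells were at 177 or less in every array. COL1A1, a fibroblast collagen, was at 659 to 1105, 609 to 939 and 607 to 1078 with the hairpin, tRNA and empty vector, and the other 4 fibroblast markers at 133 or less. KRT18, an epithelial keratin, was at 2164 to 2633, 2319 to 2594 and 2109.6 to 2454 with the same vectors, and KRT8, CDH1 and EPCAM at 89.8 to 368. The Bacillus control probe sets, for RNAs added in labelling, averaged 1941 to 2061 in the arrays numbered 1, 371 to 432 in those numbered 2 and 19.8 to 27.6 in those numbered 3 and 4. For GAPDH the ratio of 3' to 5' signal, which rises as RNA degrades, was 1.35 ± 0.223 with the hairpin vector, 1.36 ± 0.129 with the tRNA vector, against 1.34 ± 0.125 with the empty vector (SD, n = 4). In RNA from whole cultures, fewer cells that express a gene and less RNA per cell cannot be told apart.

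With the tRNA vector, 58 of the 76 subunit genes had a higher mean than with the empty vector (76.3%, against 50.7% of all 13952 genes tested), and no subunit passed the test. The median log2 fold change of the subunits was 0.070, against 0.003 for all genes. NDUFV1, the flavoprotein that binds NADH in complex I, stood furthest from 0 among the complex I genes by moderated t, and UQCRC1, a core protein of complex III, led its complex. In complex I, 27 of 33 genes had the higher mean (median 0.10), in complex III 6 of 7 (0.069), in complex IV 10 of 15 (0.071) and in complex V 14 of 18 (0.059). Complex II had 1 of 3, with a median of -0.013. The question behind this comparison is how a supplied tRNA gene alters the transcriptome.

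In limma, 0 of 32768 probe sets passed after Benjamini-Hochberg adjustment (0.0%), and the smallest adjusted p of a member was 1, for NDUFV1. Before adjustment, a p under 0.05 was found for 5 members with the higher mean (6.58%, against 1.85% of all genes) and for 1 with the lower mean (1.32%, against 2.41%). Those 5 were NDUFV1, NDUFA10, NDUFA1, UQCRC1 and the dim ATP5MF, and the other was the dim COX4I2. Of the 1111 genes with a signal of 5000 or more, 29 had such a p with the higher mean and 19 with the lower mean. Of the 53 members of that brightness 2 did with the higher mean (3.77%) and 0 with the lower mean. With the replicate number as a block, 0 probe sets passed. An unadjusted p under 0.05 was then found for 16 members with the higher mean (21.1%) and 2 with the lower mean (2.63%). Of all 32768 probe sets, 1222 had such a p with the higher mean and 1324 with the lower mean. These count probe sets, while the members are counted as genes, and no share over all genes is given for this block. The 4 arrays of each group did not overlap for 3 members with the higher mean (3.95%, against 1.25% of all genes). Of the genes with a signal of 5000 or more, 2.25% were higher without overlap. COX4I2 was the 1 member without overlap that had the lower mean (1.32%, against 1.69% of all genes). Higher in each of 4 same-number comparisons were 16 members (21.1%, against 8.01% of all genes and 14.4% of those with a signal of 5000 or more), and lower in each were 4 (5.26%, against 8.25%). A higher share was seen in bright probe sets as a whole. Among the 1111 genes with a geometric mean of 5000 or more, 774 (69.7%) had a higher mean with the tRNA vector, at a median of 0.043, and among the 53 members of that brightness 45 did (84.9%). With quantile normalization of the arrays, 50 of the 76 members had a higher mean and their median was 0.029. The smallest unadjusted limma p of a member was then 0.00967, for ATP5F1C, which was lower at -0.13 ± 0.043. Without empty vector array 1 the median was 0.11, and without the 3 arrays numbered 1 it was 0.12, with 61 of 76 higher.

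**Figure D1:**
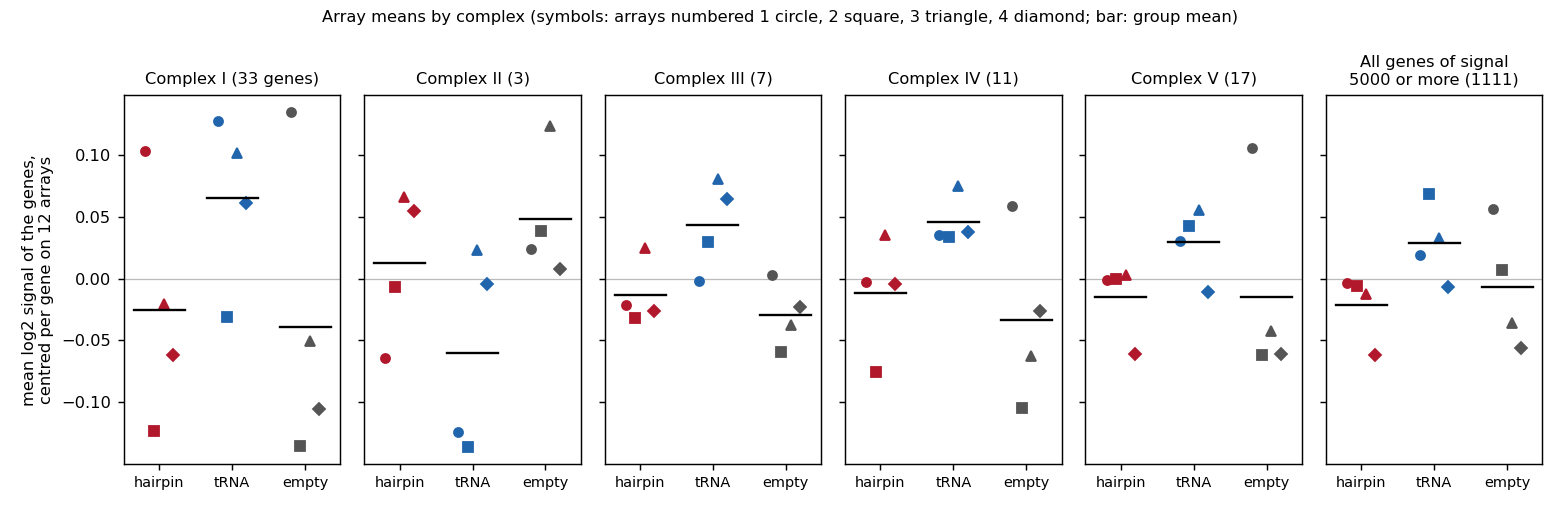
Mean log2 signal of the genes of each complex in every array, centred per gene on its mean over the 12 arrays, for the 71 subunit genes with a signal of 500 or more and, at the right, for all 1111 genes of signal 5000 or more. Each point is 1 array, the bar is the mean of 4 arrays, and hairpin, tRNA and empty vector stand left to right. The tRNA vector bar is the highest in complexes I, III, IV and V and in the 1111 bright genes, and the lowest in complex II, with arrays of the groups overlapping in each panel.

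The plot of array means by complex shows how far single arrays spread. In complex I the array means were 0.065 ± 0.070 with the tRNA vector, against -0.039 ± 0.12 with the empty vector (SD, n = 4), and empty vector array 1 was the highest of the 8 at 0.13. For complex III the means were 0.043 ± 0.037 with the tRNA vector, against -0.030 ± 0.026 with the empty vector, and the lowest tRNA vector array (-0.0018) lay just under the highest empty vector array (0.0028). In complex V the arrays of the tRNA vector (0.040 to 0.093) lay above those of the empty vector (-0.10 to -0.0064) when all 18 genes were averaged. Without the dim ATP5MF they overlapped, at -0.010 to 0.056 with the tRNA vector and -0.062 to 0.11 with the empty vector.

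The matrix arm of complex I had 10 of 14 genes with a higher mean (median 0.096) and the membrane arm 16 of 18 (median 0.11). NDUFV1 had signals of 4385, 5060.1, 5502 and 5428 in the tRNA vector arrays numbered 1 to 4, against 3598, 4641, 4014 and 3567 in those of the empty vector. Its log2 fold change was 0.37 ± 0.12 (limma SE), a fold of 1.29, and it was higher in each same-number comparison although the groups overlapped, since tRNA vector array 1 lay below empty vector array 2. NDUFA10, an accessory subunit of the membrane arm, had signals of 3430.0, 3324, 3443 and 3843 with the tRNA vector, against 2879, 3189, 2917 and 3139 with the empty vector. All 4 tRNA vector arrays lay above all 4 empty vector arrays and the log2 fold change was 0.21 ± 0.076. Of its 2 other tested probe sets 1 had the same sign. NDUFA1, a small membrane-arm subunit, had 20487, 21264, 19713 and 18488 with the tRNA vector, against 20343, 15307, 16060.3 and 18095 with the empty vector. Here empty vector array 1 reached the level of the tRNA vector arrays, and the log2 fold change was 0.20 ± 0.087.

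At the low end of complex I by moderated t stood NDUFV2, an iron-sulphur protein that partners NDUFV1, at -0.11 ± 0.13. Its signals were 3395, 3289, 2992 and 2833 with the tRNA vector, against 4091, 3456, 3035 and 2975 with the empty vector, lower in each same-number comparison. NDUFV1 and NDUFV2 thus had opposite signs, though the value of NDUFV2 was smaller than its standard error. The accessory subunits NDUFC1 and NDUFA5 had log2 fold changes of -0.053 ± 0.080 and -0.083 ± 0.14. NDUFS7, the core subunit with the iron-sulphur cluster next to ubiquinone, had the highest log2 fold change in the complex with a wide error, 0.39 ± 0.40, and array 1 of each group lay far above the others.

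The succinate-oxidising subunit SDHA had signals of 5201, 4613, 4943 and 4652 with the tRNA vector, against 4859.7, 5085, 5022 and 4604 with the empty vector, a log2 fold change of -0.013 ± 0.073. SDHD, a membrane anchor that binds haem with SDHC, stood at 0.024 ± 0.11. SDHC had 1727, 2693, 3018 and 2994 with the tRNA vector, against 2795, 3251, 3699.6 and 3187 with the empty vector, and its log2 fold change was -0.34 ± 0.18. It has 6 other tested probe sets, of which 2 shared the direction. The 3 brightest probe sets after it gave -0.26, 0.37 and 0.12, so the sign for SDHC depends on the probe set.

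In complex III the core proteins UQCRC1 and UQCRC2 had the highest moderated t, and by fold change UQCRQ, a small subunit (0.15 ± 0.14), lay between them. The UQCRC1 signals were 10162, 12377, 11319.5 and 10385 with the tRNA vector, against 9870.5, 10047, 9482 and 9504 with the empty vector. These groups did not overlap, and the log2 fold change was 0.18 ± 0.075, a fold of 1.13. UQCRC2 was at 8189.6 ± 637 with the tRNA vector, against 7453 ± 476 with the empty vector (SD, n = 4), a log2 fold change of 0.13 ± 0.079. CYC1, the cytochrome that hands electrons to cytochrome c, stood at 0.040 ± 0.076, and UQCRB, a small subunit near the ubiquinone site, at -0.11 ± 0.088. The next probe set of UQCRB by brightness had the other sign here (0.16) and with the hairpin vector (0.23).

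Of the 10 ordinary complex IV subunits 9 had a higher mean (median 0.10), while of 4 dim tissue isoforms 1 did. COX7C, a small subunit of the complex, had signals of 21524, 23526, 23021 and 21782 with the tRNA vector, against 21484, 18754, 20985 and 19294 with the empty vector, which did not overlap. The lowest tRNA vector array exceeded the highest empty vector array by little (21524 and 21484), and the log2 fold change was 0.16 ± 0.076. Both of its other tested probe sets had the same sign. COX7B stood at 0.12 ± 0.070 and COX6A1, the isoform of that subunit used outside muscle, at -0.047 ± 0.074. The subunits COX8A, COX7A2, COX4I1 and COX6B1 had log2 fold changes of 0.16, 0.12, 0.10 and 0.10.

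In complex V the c-ring gene ATP5MC3 had signals of 13109, 14448, 13938 and 15885 with the tRNA vector, against 12235, 13434, 13371 and 12056 with the empty vector, and a log2 fold change of 0.17 ± 0.093. ATP5MC1 and ATP5MC2, which encode the same mature c subunit behind other import sequences, were at 0.013 and -0.016. The F1 subunits ATP5F1B, which holds the catalytic sites, and ATP5F1A, its partner in the ring, had 0.10 and 0.054. ATP5F1C, the central stalk, whose next 2 probe sets by brightness gave 0.059 and 0.087, stood at -0.064 ± 0.066 and ATP5PF, of the peripheral stalk, at -0.055 ± 0.078. ATP5IF1, the protein that inhibits ATP hydrolysis by the synthase, had a log2 fold change of 0.00078. The highest log2 fold change of the complex, 1.19 ± 0.54 for ATP5MF, came from a dim probe set with signals of 107, 50.8, 48.8 and 89.0 with the tRNA vector, against 12.7, 58.6, 43.5 and 27.4 with the empty vector. The bright probe set that ATP5MF shares with another symbol gave 0.038 ± 0.071.

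**Figure D2:**
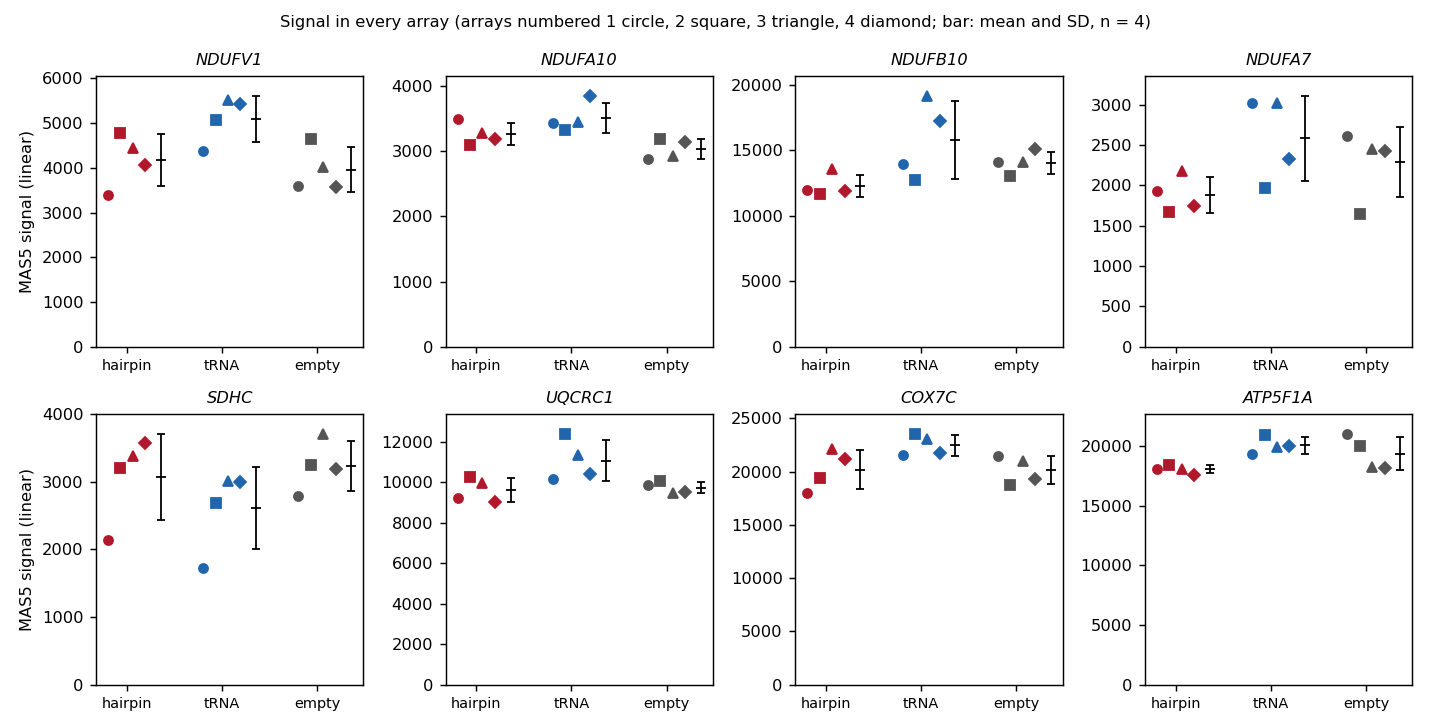
Signals of 8 subunit genes on a linear scale from 0, with hairpin, tRNA and empty vector from left to right, each point 1 array and the bar the mean and SD of 4 arrays. NDUFA10, UQCRC1 and COX7C show the 4 tRNA vector arrays above the 4 empty vector arrays, ATP5F1A shows the 4 hairpin vector arrays below the 4 tRNA vector arrays, and SDHC shows array 1 lowest in each group.

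With the hairpin vector, the subunit genes stood close to their level with the empty vector. Of 76 genes 44 had a higher mean (57.9%, against 51.2% of all genes) and the median log2 fold change was 0.0083, against 0.004 for all genes. Complex I had 19 of 33 with a higher mean, complex II 0 of 3, complex III 4 of 7, complex IV 10 of 15 and complex V 11 of 18, with medians of 0.023, -0.0095, 0.018, 0.0047 and 0.0083. The question here is how CU1276 made from a hairpin alters the transcriptome. The test called 0 of 32768 probe sets (limma, 0.0%), the smallest adjusted p of a member was 1 (NDUFA6), and 0 members had an unadjusted p under 0.05, against 1.49% of all genes higher and 1.25% lower. With the replicate number as a block, 0 probe sets passed, and an unadjusted p under 0.05 was found for 4 members with the higher mean (5.26%, against 3.27% of all genes), NDUFA6, NDUFA13, NDUFS7 and COX7A2, and for 2 with the lower mean (2.63%, against 2.58%), NDUFA7 and NDUFB10. The smallest adjusted p of a member was then 0.866, for NDUFA7. Of the members, 0 had groups that did not overlap in either direction (all genes 1.11% higher and 1.22% lower). In each of 4 same-number comparisons 4 members were higher and 4 lower (5.26% each, against 7.04% and 6.95% of all genes). Of the genes of signal 5000 or more, 39.9% had a higher mean with the hairpin vector, and of the members of that brightness 34 of 53 did (64.2%). The median changed sign when single arrays were left out, with values of -0.0076 without empty vector array 2 and 0.044 without empty vector array 1. It was 0.027 with quantile normalization, with 51 of 76 higher, and 0.035 without the 3 arrays numbered 1.

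The highest subunit by moderated t was NDUFA6, a matrix-arm subunit that binds the mitochondrial acyl carrier protein. Its signals were 7213, 6292, 6349.8 and 6228 with the hairpin vector, against 6548, 5971, 5541 and 5078 with the empty vector, a log2 fold change of 0.18 ± 0.085. Empty vector array 1 lay among the hairpin vector arrays, and its other 1 tested probe set had the same sign. NDUFA13, a membrane-arm subunit also known as GRIM-19, stood at 0.17 ± 0.11 and NDUFA10 at 0.11 ± 0.076. The lowest were NDUFB10 of the membrane arm and NDUFA7 and NDUFS3 of the matrix arm. NDUFB10 had 11947, 11655, 13557 and 11897 with the hairpin vector, against 14088, 12996, 14065 and 15061 with the empty vector, and a log2 fold change of -0.20 ± 0.11. It was lower in each same-number comparison, while hairpin vector array 3 overlapped the empty vector arrays. NDUFA7 had 1927, 1674, 2176 and 1737 with the hairpin vector, against 2611, 1646, 2451 and 2427 with the empty vector, with empty vector array 2 the lowest of the 8, and its log2 fold change was -0.27 ± 0.16. NDUFS3, a core subunit, was at -0.069 ± 0.062.

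The subunits of complex II stood at -0.0050 ± 0.073 for SDHA, -0.093 ± 0.18 for SDHC and -0.010 ± 0.11 for SDHD. In complex III, UQCR11 and UQCRQ, small subunits, were at 0.10 ± 0.080 and 0.051 ± 0.14, and UQCRB and UQCRC2 at -0.041 ± 0.088 and -0.028 ± 0.079. Of complex IV, COX7A2 had 8858 ± 603 with the hairpin vector and 8167 ± 924 with the empty vector (SD, n = 4), a log2 fold change of 0.12 ± 0.084, and COX8A stood at 0.069 ± 0.11. In complex V, ATP5F1D, a small subunit of the central stalk, was at 0.12 ± 0.15, ATP5F1A at -0.10 ± 0.064 and ATP5MC1 at -0.10 ± 0.093. The probe sets with the largest fold changes were dim ones. Those of ATP5MF, COX4I2 and COX6A2 had 0.74 ± 0.54, -0.67 ± 0.48 and -0.47 ± 0.70, where 1 array of COX6A2 in each group lay far under the rest.

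Between the vectors, 55 of the 76 subunit genes had a lower mean with the hairpin vector than with the tRNA vector (72.4%, against 49.4% of all genes), and none passed the test. The median log2 fold change was -0.058, against 0.003 for all genes. NDUFB10 and NDUFA7 of complex I, UQCRC1 of complex III, and ATP5F1A and ATP5F1B of the F1 head of ATP synthase were among the lowest. Complex I had 27 of 33 genes with a lower mean (median -0.068), complex III 5 of 7 (-0.040), complex IV 9 of 15 (-0.053) and complex V 13 of 18 (-0.056), and complex II 1 of 3 (0.0077). This comparison uses the tRNA vector arrays that were also set against the empty vector, so the 2 results are not independent. It asks how the hairpin source differs from the tRNA source.

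In limma, 0 of 32768 probe sets passed (0.0%), and the smallest adjusted p of a member was 1, for NDUFB10. With the replicate number as a block, 6 probe sets passed (0.0183%), none of them a member, and the smallest adjusted p of a member was 0.166, for NDUFA7. Before adjustment and without the block, 5 members had a p under 0.05 and a lower mean (6.58%, against 1.92% of all genes) and 0 a higher mean (against 2.64%). The 5 were NDUFB10, NDUFA7, NDUFV1, UQCRC1 and ATP5F1A. With the block these counts were 13 (17.1%, against 4.41% of all genes) and 1, SDHC (1.32%, against 4.96%). Without the block, 47 of the 1111 genes of signal 5000 or more had such a p with a lower mean and 14 with a higher mean. Of the 53 members of that brightness 3 did with a lower mean (5.66%) and 0 with a higher mean. Among the genes of signal 5000 or more, 75.6% had a lower mean with the hairpin vector, at a median of -0.055, and of the 53 members of that brightness 41 did (77.4%). Lower in each of 4 same-number comparisons were 27 members (35.5%), against 9.52% of all genes and 30.9% of the genes of signal 5000 or more, and 3 were higher in each (3.95%, against 9.58%). With quantile normalization 42 members had the lower mean and the median was -0.0052. An unadjusted limma p under 0.05 was then found for 4 members with the lower mean and 3 with the higher mean. The median was -0.033 without hairpin vector array 2 and -0.085 without tRNA vector array 2.

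**Figure D3:**
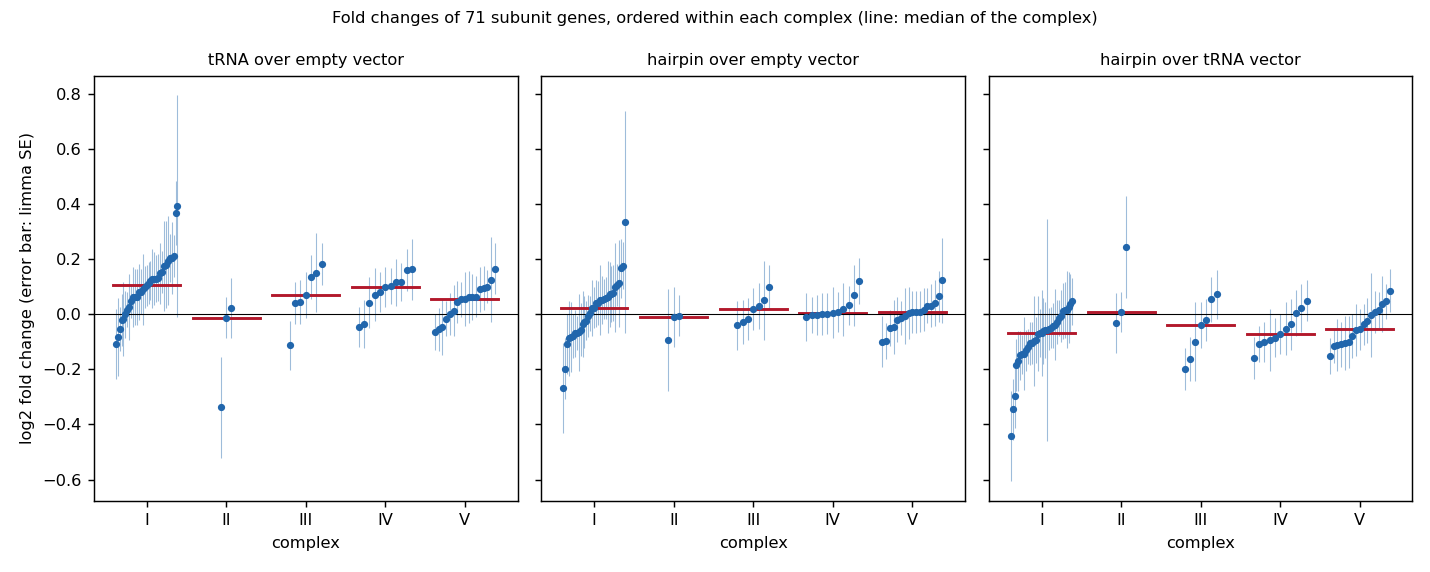
Log2 fold changes of the 71 subunit genes of signal 500 or more, ordered from low to high within each complex, for tRNA over empty, hairpin over empty and hairpin over tRNA vector. Each point is 1 gene, the error bar is its limma standard error and the red line is the median of the complex, at 0.10, 0.023 and -0.068 in complex I.

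NDUFB10 had signals of 11947, 11655, 13557 and 11897 with the hairpin vector, against 13931, 12701, 19144 and 17248 with the tRNA vector. The tRNA vector arrays numbered 3 and 4 were far above the rest, array 3 of the hairpin vector lay within the range of the tRNA vector, and the log2 fold change was -0.34 ± 0.11, a fold of 0.787. Its other tested probe set did not share the direction. NDUFA7 had 1927, 1674, 2176 and 1737 with the hairpin vector, against 3017, 1966, 3019 and 2329 with the tRNA vector, lower in each same-number comparison with overlapping groups, and a log2 fold change of -0.44 ± 0.16. NDUFV1 followed at -0.29 ± 0.12, from 3402, 4772, 4431 and 4066 with the hairpin vector and the tRNA vector signals given above. At the high end of complex I stood NDUFA6, NDUFA13 and NDUFV2, at 0.047 ± 0.085, 0.038 ± 0.11 and 0.025 ± 0.13, which are smaller than their standard errors.

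UQCRC1 had 9221, 10264, 9978 and 9027 with the hairpin vector, all below the tRNA vector arrays except that hairpin vector array 2 lay above tRNA vector array 1, and a log2 fold change of -0.20 ± 0.075. UQCRC2 stood at -0.16 ± 0.079, UQCRB at 0.072 ± 0.088 and UQCR11 at 0.053 ± 0.080. In complex IV, COX7C had 18009.6, 19361, 22111 and 21163 with the hairpin vector, overlapping the tRNA vector arrays through array 3, at -0.16 ± 0.076. COX4I1, the common form of the largest nuclear-encoded subunit, was at -0.11 ± 0.065, and COX6A1 at 0.049 ± 0.074.

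The F1 head gave the 2 members whose groups did not overlap (2.63%, against 1.58% of all genes lower). With a higher mean, 0 members had groups that did not overlap (against 1.66%). The 2 F1 members have a signal of 5000 or more. Of all genes of that brightness 3.60% were lower without overlap, close to the 3.77% of the members of that brightness. ATP5F1A had signals of 18079.5, 18416, 18067 and 17605 with the hairpin vector, against 19313, 20956, 19931 and 19970.0 with the tRNA vector, a log2 fold change of -0.15 ± 0.064. ATP5F1B had 16277, 17743, 17415 and 17128 with the hairpin vector, against 17859, 19619, 18942 and 17863 with the tRNA vector, at -0.12 ± 0.061. For both genes each hairpin vector array was below each tRNA vector array, by a margin that was small for ATP5F1B. The empty vector arrays of ATP5F1A spanned both ranges, at 21006, 19971, 18236 and 18139. ATP5PF and ATP5MC2 stood highest of the bright complex V genes, at 0.086 ± 0.078 and 0.047 ± 0.064. For complex II the values were 0.0077 ± 0.073 for SDHA, 0.24 ± 0.18 for SDHC and -0.033 ± 0.11 for SDHD. Of the 6 other SDHC probe sets 5 had the sign of the brightest here, and the next 3 by brightness gave 0.19, -0.35 and 0.027.

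The tissue isoforms of complex IV were dim in these kidney-derived cells, and signals of different probe sets are not compared with each other. COX4I2, the lung isoform, had signals of 137, 92.2, 74.1 and 67.3 with the hairpin vector, 108, 20.4, 84.2 and 114 with the tRNA vector, against 127, 139, 141 and 162 with the empty vector. The tRNA vector arrays all lay below the empty vector arrays, with tRNA vector array 2 under the signal of the filter, and the log2 fold change was -1.06 ± 0.48 with an unadjusted limma p of 0.0419. COX6A2, the heart and muscle isoform, was at 11.1 to 85.7 with the hairpin vector, 53.3 to 98.6 with the tRNA vector, against 18.8 to 112 with the empty vector. COX6B2 and COX8C, testis isoforms, ranged over 28.4 to 89.1 and 45.1 to 71.2 with the hairpin vector, 10.6 to 104 and 34.8 to 74.3 with the tRNA vector, and 20.2 to 132 and 48.9 to 69.4 with the empty vector. Their forms in other tissues, COX4I1, COX6A1, COX6B1 and COX8A, were measured by bright probe sets, with COX6B1 at 6849 ± 427 with the hairpin vector, 7338 ± 217 with the tRNA vector, against 6861 ± 483 with the empty vector (SD, n = 4). COX7A2L, a relative of COX7A2 that takes part in joining complexes into supercomplexes, had log2 fold changes of -0.034 ± 0.087 for tRNA over empty, -0.011 ± 0.087 for hairpin over empty and 0.023 ± 0.087 for hairpin over tRNA.

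Arrays numbered 1 stood apart most for the matrix arm of complex I. In 20 of the 76 subunit genes (26.3%, against 11.9% of all genes) array 1 had the highest signal of its group in all 3 groups, and in 2, SDHC and UQCR10, the lowest (2.63%, against 6.39%). The matrix arm of complex I held 9 of its 14 genes among the 20 (64.3%), namely NDUFA5, NDUFA6, NDUFA9, NDUFS1, NDUFS4, NDUFS6, NDUFS7, NDUFV2 and NDUFV3, and the membrane arm 3 of 18 (16.7%). Complex II had 1 of 3 among them, complex III 1 of 7, complex IV 1 of 15 and complex V 5 of 18 (27.8%). The gap of array 1 to the mean of the other arrays had a median over the matrix arm of 0.23 (log2) with the hairpin vector, 0.20 with the tRNA vector, against 0.30 with the empty vector. NDUFS7 had signals of 1559, 712, 639.8 and 695 with the hairpin vector, 1551, 697, 720.3 and 745 with the tRNA vector, against 1605, 419, 665 and 438 with the empty vector. In each group array 1 was at more than the sum of any pair of the other arrays of that group. The same 3 arrays had the highest Bacillus control signals given above and, within each group, the highest GAPDH 3' to 5' ratio, at 1.67, 1.52 and 1.47 with the hairpin, tRNA and empty vector. The part of labelling or RNA integrity in these differences was not tested. Each group holds 1 of these arrays.

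**Figure D4:**
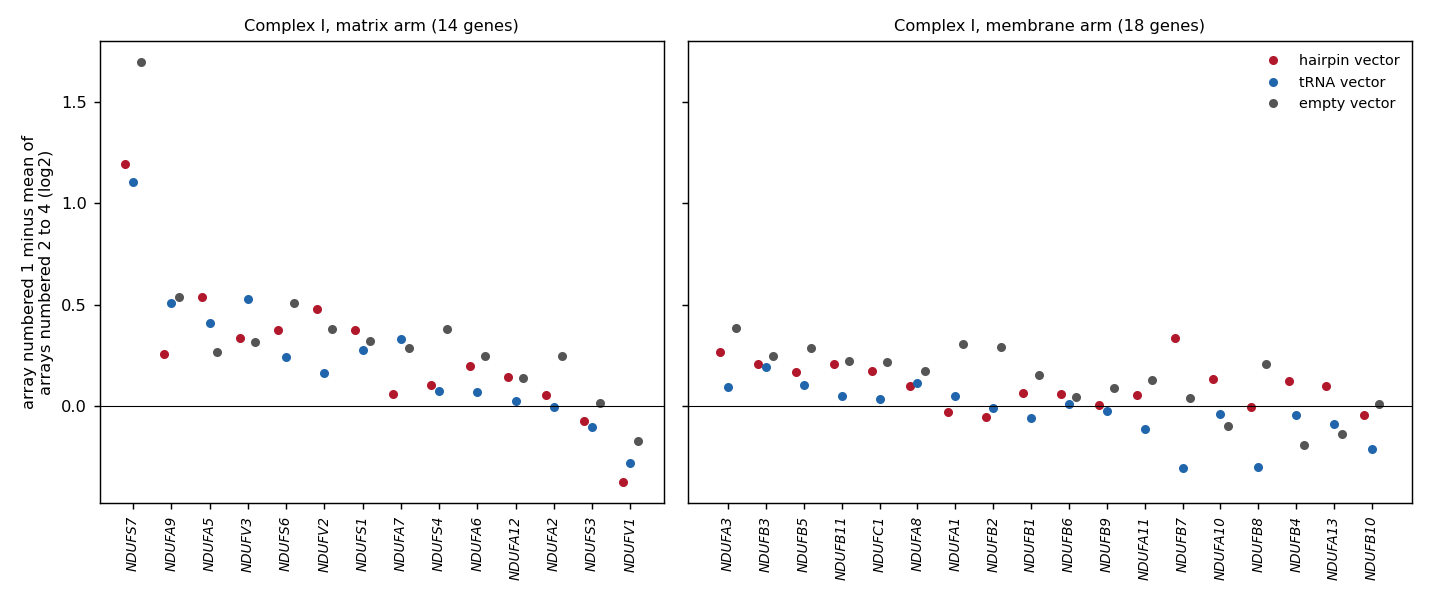
Difference between the array numbered 1 and the mean of arrays numbered 2 to 4 of the same group (log2 signal) for each gene of the matrix arm and the membrane arm of complex I, with hairpin, tRNA and empty vector as separate points. NDUFS7 lies highest, at 1.19, 1.11 and 1.69, and 9 of 14 matrix-arm genes against 3 of 18 membrane-arm genes had array 1 highest in all 3 groups.

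Related genes outside the rule were listed with earlier results of these data known, and 0 passed limma in any comparison. The genes named from each list are those with the highest and lowest moderated t. Of 7 subunits encoded in mitochondrial DNA, 5 had a higher mean with the tRNA vector than with the empty vector (median 0.11). With the hairpin vector 1 of 7 did against the empty vector (-0.036) and 2 of 7 against the tRNA vector (-0.14). Their array means spread more than those differences, at -0.32 and 0.29 in hairpin vector arrays 1 and 2 and -0.25 and 0.31 in tRNA vector arrays 1 and 2, against -0.016 to 0.062 over the empty vector arrays. ND2, a proton-pumping subunit of complex I, was at 0.14 ± 0.12 with the tRNA vector against the empty vector, and at -0.14 ± 0.12 between the vectors. COX3, a core subunit of complex IV, was at -0.34 ± 0.25 for tRNA over empty and -0.18 ± 0.25 for hairpin over empty. ND6, of complex I, stood at 0.064 ± 0.55 with the hairpin vector against the empty vector and 0.40 ± 0.55 between the vectors.

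Of 51 assembly factors 28 had a higher mean with the tRNA vector than with the empty vector (median 0.020), 24 with the hairpin vector against the empty vector (-0.0077) and 24 against the tRNA vector (-0.015). NDUFAF8, a factor of complex I assembly, stood lowest with each vector against the shared empty vector arrays. It had 3883 ± 509 with the hairpin vector, 3825 ± 88.3 with the tRNA vector, against 4915 ± 751 with the empty vector (SD, n = 4), with log2 fold changes of -0.34 ± 0.11 and -0.35 ± 0.11 in the order of the vectors. NDUFAF3, another such factor, had the highest moderated t with the tRNA vector, at 0.16 ± 0.093, and FOXRED1 with the hairpin vector, at 0.16 ± 0.10 against the empty vector and 0.17 ± 0.10 against the tRNA vector. COX20, for complex IV assembly, was the lowest between the vectors, at -0.41 ± 0.20.

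Of 17 regulators of mitochondrial biogenesis 11 had a higher mean with the tRNA vector than with the empty vector (median 0.063), 12 with the hairpin vector against the empty vector (0.024) and 5 against the tRNA vector (-0.047). YY1, whose letters were searched in the promoters, had 7908 ± 746 with the hairpin vector, 6394 ± 618 with the tRNA vector, against 7970.2 ± 688 with the empty vector (SD, n = 4). Its log2 fold change was -0.32 ± 0.093 with the tRNA vector against the empty vector and 0.31 ± 0.093 between the vectors, with a limma adjusted p of 1 in both. PPRC1, a coactivator, had the highest moderated t against the empty vector with either vector, at 0.21 ± 0.11 for tRNA over empty and 0.16 ± 0.11 for hairpin over empty. POLG, the polymerase of mitochondrial DNA, was lowest between the vectors at -0.16 ± 0.15, and TFAM, which packages and transcribes mitochondrial DNA, was at -0.076 ± 0.11 with the hairpin vector.

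Electron carriers and exchange proteins had 13 of 21 genes higher with the tRNA vector than with the empty vector (median 0.046), 9 with the hairpin vector against the empty vector (-0.024) and 8 against the tRNA vector (-0.060). SLC25A4, an exchanger of ADP and ATP, stood at -0.29 ± 0.12 with the tRNA vector against the empty vector and 0.32 ± 0.12 between the vectors. COQ8B, a protein of coenzyme Q synthesis, had 170.3 ± 144 with the hairpin vector, 291 ± 129.7 with the tRNA vector, against 161 ± 82.2 with the empty vector (SD, n = 4). Its log2 fold change was 0.88 ± 0.51 with the tRNA vector against the empty vector and -0.96 ± 0.51 between the vectors. VDAC1, the pore of the outer membrane, was at -0.19 ± 0.077 with the hairpin vector against the empty vector, and CYCS, cytochrome c, at 0.065 ± 0.080. Citrate cycle genes had 10 of 16, 9 of 16 and 7 of 16 higher in the same 3 comparisons. SUCLA2, a subunit of succinyl-CoA ligase, was lowest with the tRNA vector against the empty vector, at -0.43 ± 0.13, and highest between the vectors, at 0.39 ± 0.13. MDH2, malate dehydrogenase, was highest with the tRNA vector, at 0.18 ± 0.10. IDH3G, of isocitrate dehydrogenase, was lowest with the hairpin vector, at -0.12 ± 0.10 against the empty vector and -0.28 ± 0.10 against the tRNA vector, and PDHB, of pyruvate dehydrogenase, was highest against the empty vector at 0.11 ± 0.11.

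The noncoding neighbours were dim. NDUFV1-DT, which starts beside NDUFV1, had mean signals of 146 with the hairpin vector, 118 with the tRNA vector, against 117 with the empty vector, and its log2 fold change was 0.27 ± 0.55 for hairpin over empty and 0.26 ± 0.55 for tRNA over empty. NDUFB2-AS1 had 269 ± 46.2 with the hairpin vector, 257 ± 38.9 with the tRNA vector, against 247 ± 63.2 with the empty vector (SD, n = 4). For NDUFV2-AS1 the tested probe set had 77.2 ± 26.0, 42.5 ± 16.3 and 68.5 ± 30.4 with the hairpin, tRNA and empty vector, and its log2 fold change between the vectors was 0.89 ± 0.49.

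Other probe sets of the same genes are a check within these arrays. For the 36 members with more than 1 tested probe set, 33 of 61 other probe sets had the sign of the brightest with the tRNA vector against the empty vector, 32 with the hairpin vector against the empty vector and 36 between the vectors. The direction of the brightest probe set was thus in many cases not repeated by the others. No share over all genes is given for this check.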

How the data were processed

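The authors deposited linear signal intensities, with 1 array to a column, and the submitters' processing notes name MAS5. Its version, the genome build and the annotation version are not given in the sources used here. Each column had a mean of 500.1 after trimming 2% from either end, so columns had been scaled to a common intensity. Of the probe sets, 41097 had 1 gene symbol, 1801 several and 11777 none in the platform annotation used here. Updating by Entrez identifier changed 0 symbols, and 54 were not in the RefSeq table.

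The log2 of each signal was used without an offset. Excluded were 62 controls and the 21845 dimmest probe sets, those below the 40th percentile of mean log2 signal, which left 32768 tested, 26675 of them with 1 symbol, for 13952 genes. All 12 arrays were fitted with 3 group means in limma 3.58.1 (R 4.3.3), with eBayes and an intensity trend. Two-sided p values received a Benjamini-Hochberg adjustment across all 32768, with 0.05 as the threshold. They set each group difference against the spread among arrays of the same group, and the number of arrays limits the precision. This fit has no term for the array number, so that spread includes differences between arrays of unlike number. Fold changes are the first vector named over the other, and ± after them is the limma standard error. The steps were tested on simulated data.

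Members, lists and tests were chosen with earlier results of these data known. Named genes were, per comparison, the 3 highest and 3 lowest by moderated t in complex I, 2 and 2 in complexes III, IV and V, all 3 in complex II, the isoform groups, and the highest and lowest of each list. Genes outside it, among them NDUFS7, COX8A with its neighbours in 1 sentence, and members whose groups did not overlap, were named after their values were seen. Same-numbered arrays deviated together from their group means with r of 0.108 to 0.333 for hairpin and empty vector and 0.113 to 0.356 for hairpin and tRNA vector, so these were taken as paired. For tRNA and empty vector r was 0.0987 to 0.284, under 0.1 for number 3, so these were not, a split that rests on number 3 alone. The main fit is unpaired in every comparison, including those taken as paired. Fits with the replicate number as a block are given beside it for each comparison. Between an array numbered 3 and one numbered 4 of another group, r was 0.0930 to 0.148. The numbers 3 and 4 are therefore hardly told apart by r. Alternatives were quantile normalization, no filter, an offset of 16, no trend, replicate or batch blocks, the mean over probe sets and leaving out arrays. Promoter letters were searched in Python 3.11.15, and those for NRF1 were shortened by 1 letter after counts of the longer form had been seen.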

Additional observations from a re-analysis of the deposited data

Results flagged for a closer look

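In 129 groups of 4 arrays examined for named members, 11 held 1 array far from the other 3 by Dixon's test at 95%, and chance gives about 1 in 20 groups. In complex I, hairpin vector array 1 was at 7213 for NDUFA6 (others 6228 to 6349.8), hairpin vector array 2 at 6819 for NDUFA13 (8387 to 8702) and hairpin vector array 3 at 13557 for NDUFB10 (11655 to 11947). With the tRNA vector, array 4 was at 9349.9 for NDUFC1 (10282 to 10419) and array 1 at 5988 for NDUFS3 (6384 to 6466). Empty vector array 2 was at 1646 for NDUFA7 (2427 to 2611).

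In the other complexes, hairpin vector array 2 was at 4428 for SDHA (4991 to 5069) and tRNA vector array 3 at 15080.2 for COX7B (13744 to 13874). Empty vector array 4 was at 3078 for ATP5MC1 (2909 to 2925). The dim COX6A2 was at 11.1 in hairpin vector array 2 (64.3 to 85.7) and at 18.8 in empty vector array 1 (86.3 to 112).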

How the results depend on the processing

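No member passed limma under any of the alternatives run, and the medians of the subunits moved by less than the spread between arrays. Over all probe sets, a batch block with 3 levels (number 1, number 2, and 3 with 4), set from the Bacillus control signals with earlier results known and given by no label, called 4 with the tRNA vector against the empty vector, 3 with the hairpin vector against the empty vector and 8 between the vectors. The replicate block called 0, 0 and 6, and changed no other call. Without the 3 arrays numbered 1, chosen after the array means were seen, 1 was called between the vectors. For tRNA and empty vector, not taken as paired, the replicate block lowered the limma adjusted p of NDUFV1 to 0.196. Their same-numbered arrays did have similar Bacillus control signals.

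Signs of named genes turned in 49 cases and held in 1211. With the tRNA vector against the empty vector they turned without the 3 arrays numbered 1 for COX6A1 (0.050) and SDHD (-0.019), and without the 3 numbered 2 for SDHA (0.030). With the hairpin vector against the empty vector they turned without the arrays numbered 1 for SDHC (0.0024), without those numbered 2 for COX6A2 (0.36), ATP5F1D (-0.067) and SDHA (0.060), and with quantile normalization for SDHA (0.0057). Between the vectors they turned without the arrays numbered 1 for NDUFA13 (-0.0083) and NDUFV2 (-0.054) and without those numbered 2 for COX4I2 (-0.20). Leaving out single arrays gave, with the tRNA vector against the empty vector, -0.088 to 0.00098 for NDUFC1, -0.091 to 0.0075 for COX6A1, -0.11 to 0.011 for ATP5PF, -0.047 to 0.011 for SDHA and -0.065 to 0.10 for SDHD. With the hairpin vector against the empty vector it gave -0.086 to 0.024 for UQCRB, -0.062 to 0.015 for UQCRC2, -0.043 to 0.14 for UQCRQ, -1.07 to 0.22 for COX6A2, -0.0081 to 0.15 for COX8A and -0.028 to 0.25 for ATP5F1D. Complex II gave -0.034 to 0.041 for SDHA, -0.17 to 0.070 for SDHC and -0.081 to 0.041 for SDHD. Between the vectors it gave -0.0021 to 0.069 for NDUFA6, -0.036 to 0.12 for NDUFA13, -0.095 to 0.079 for NDUFV2, -0.19 to 0.64 for COX4I2, -0.016 to 0.054 for SDHA and -0.11 to 0.056 for SDHD. The cause of these turns was not tested. Leaving out single arrays, the subunit medians ranged over 0.055 to 0.11 (tRNA over empty), -0.0076 to 0.044 (hairpin over empty) and -0.085 to -0.033 (hairpin over tRNA). Over all 22 alternatives they ranged over 0.029 to 0.12, -0.0076 to 0.044 and -0.085 to -0.0052. Dim probe sets near the filter limit what can be said of the tissue isoforms.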
